A study of Homo sapiens with 6 samples.

Results

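The ubiquitin-conjugating E2 enzymes were examined in SH-SY5Y, a human neuroblastoma cell line of noradrenergic type, after exposure to atrazine, a triazine herbicide, and after the vehicle dimethyl sulfoxide (DMSO). The members are the probes of the deposited intensity file whose gene symbol in the platform annotation starts with UBE2. These were 35 of 22184 probes and covered 26 genes. Each group had 3 Illumina bead arrays, and every array carried biotin-labelled cRNA made from total RNA of cells grown in DMEM/F12 with fetal bovine serum. The sources used here give neither the dose nor the length of the exposure. The labels do not say whether the numbered replicates were separate cultures. The p-values below therefore describe the spread between these arrays, and that spread may be technical. Further UBE2 genes were not analysed here.

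E2 enzymes stand between the E1 enzymes, which activate ubiquitin, and the E3 ligases, which choose the substrate. An E2 carries ubiquitin on a cysteine, and the pairing of E2 and E3 decides which kind of ubiquitin chain is built. A few E2s carry a ubiquitin-like protein in place of ubiquitin, such as NEDD8 or ISG15. Some E2s sit in the membrane of the endoplasmic reticulum (ER), where they help to remove misfolded proteins, and others work in cell division, in DNA repair or in inflammatory signalling. ER stress, insulin signalling and mitochondrial damage are the subjects named in the study's title.

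The promoter windows of 4 members are given because the results turn on them. UBE2J1 and UBE2J2 encode a pair of ER membrane E2s whose changes had opposite signs after quantile normalization. UBE2N and UBE2V1 encode an E2 and its partner, whose changes also had opposite signs. Each window holds the 250 bases before a RefSeq transcript start on GRCh38.p14, written on the strand of the gene, which is the minus strand for all 4 genes. UBE2V1 has 2 annotated starts. Capitals mark matches on either strand to TGACGTGG, a core of the unfolded protein response element, and to CCACG, the end of the ER stress response element. Every TGACGTGG holds a CCACG on its opposite strand.
UBE2J1 (chr6:89352723-89352972): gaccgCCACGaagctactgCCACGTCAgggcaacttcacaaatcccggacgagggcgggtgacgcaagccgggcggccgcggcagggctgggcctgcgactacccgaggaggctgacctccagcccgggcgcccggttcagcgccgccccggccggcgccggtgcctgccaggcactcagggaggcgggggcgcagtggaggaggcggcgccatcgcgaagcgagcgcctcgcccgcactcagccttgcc
UBE2J2 (chr1:1273855-1274104): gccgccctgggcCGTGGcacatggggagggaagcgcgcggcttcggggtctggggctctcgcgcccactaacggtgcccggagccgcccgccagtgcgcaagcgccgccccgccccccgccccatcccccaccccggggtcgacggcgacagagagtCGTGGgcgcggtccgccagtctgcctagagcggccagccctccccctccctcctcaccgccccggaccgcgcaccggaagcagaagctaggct
UBE2N (chr12:93441948-93442197): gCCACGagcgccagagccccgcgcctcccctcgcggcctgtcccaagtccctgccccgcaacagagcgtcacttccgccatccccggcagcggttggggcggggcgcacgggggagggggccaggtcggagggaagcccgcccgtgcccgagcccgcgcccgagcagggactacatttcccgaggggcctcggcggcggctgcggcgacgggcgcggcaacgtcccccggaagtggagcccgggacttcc
UBE2V1 (chr20:50113151-50113400): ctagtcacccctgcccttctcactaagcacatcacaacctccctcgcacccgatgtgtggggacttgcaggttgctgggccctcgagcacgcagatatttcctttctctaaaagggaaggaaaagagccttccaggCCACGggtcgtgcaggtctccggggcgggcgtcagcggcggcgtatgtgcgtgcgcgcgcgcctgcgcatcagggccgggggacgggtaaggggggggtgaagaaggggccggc
UBE2V1 (chr20:50115958-50116207): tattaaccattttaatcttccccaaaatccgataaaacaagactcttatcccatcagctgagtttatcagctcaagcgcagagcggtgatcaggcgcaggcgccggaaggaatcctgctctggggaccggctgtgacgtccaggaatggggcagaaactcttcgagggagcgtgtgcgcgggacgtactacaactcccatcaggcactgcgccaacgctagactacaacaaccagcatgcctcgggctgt

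The UBE2J1 window held TGACGTGG on the strand opposite to the gene, from -231 to -224 counted back from the start. It also held CCACG on the gene's strand at -245 and, within the longer match, at -231. The UBE2J2 window held CCACG on the opposite strand at -238 and -93, and UBE2N held it on the gene's strand at -249. One UBE2V1 window held CCACG on the gene's strand at -114 and the other held no match. Of all 35116 windows of this length in the RefSeq table, 0.612% held TGACGTGG and 33.5% held CCACG. Among the 25 windows of the 18 tested UBE2 genes that the table lists, 1 held TGACGTGG and 14 held CCACG. The full ER stress response element, searched on both strands with any bases in its spacer, was in 0 of these 25 windows and in 0.0740% of all windows. A match describes the letters in the window and shows no binding.

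The 2 groups of arrays differed in overall brightness. The mean deposited intensity per array was 235.1 to 311.3 units in atrazine, against 532.2 to 939.1 in DMSO. A probe was counted as above background where its detection p-value was under 0.05, and 43.6% to 52.0% of all probes were so in atrazine, against 58.9% to 59.8% in DMSO. Normalized values of atrazine replicate 2 correlated across probes, which are not independent replicates, at 0.966 and 0.961 with atrazine replicates 1 and 3, which correlated with each other at 0.993. DMSO arrays correlated with each other at 0.992 to 0.994. Of 10 noradrenergic marker genes on the array, 9 were above background on all 6 arrays. HAND2 was above background on none. The log2 of the summed intensity of that list was 14.03 to 14.08 in atrazine and 14.75 to 14.86 in DMSO. Of 9 markers of mesenchymal-type cells, 4 to 5 were above background in atrazine and 6 in DMSO. The log2 of their summed intensity was 13.42 to 13.47 in atrazine and 12.66 to 12.90 in DMSO. Of 4 epithelial markers, 1 to 2 were above background on the atrazine arrays and 3 to 4 on the DMSO arrays. The log2 of their summed intensity ran the other way, at 8.17 to 8.33 in atrazine and 7.77 to 7.95 in DMSO. Of 3 blood markers, 1 was above background on each atrazine array and 0 on the DMSO arrays. The log2 of their summed intensity was 6.88 to 7.23 in atrazine and 6.60 to 6.70 in DMSO. The part of brightness or of these markers in the results below was not tested. In bulk RNA, fewer cells of a type and less RNA per cell cannot be told apart. The sources name no chip or labelling batch.

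Most UBE2 probes that could be tested were lower in atrazine-treated cells. Values below are normalized log2 intensities unless said otherwise, and changes are atrazine minus DMSO. A probe was tested where it was above background on all 3 arrays of at least 1 group, which held for 31 of the 35 UBE2 probes and 24 of the 26 genes. The other 4, single probes of UBE2J2, UBE2Q2P1, UBE2U and UBE2V1, were above background on no array. Of the 31 tested, 19 were lower and 6 higher in atrazine (limma, adjusted p under 0.05 over all 12969 tested probes, two-sided), and 6 did not pass. Among all tested probes 66.8% passed, 39.2% lower and 27.6% higher. The UBE2 shares were 61.3% lower and 19.4% higher. The median change was -0.48 over the UBE2 probes and -0.19 over all probes tested. Of the 31 tested probes, 7 passed the detection filter through the DMSO arrays only and 0 through the atrazine arrays only, so these counts do not describe all 35 members. A probe that enters through DMSO alone is one that is dim in atrazine, and 68.5% of the 3468 such probes of the whole array were called lower and 2.83% higher. Of the 7 such UBE2 probes, 5 were called lower and 0 higher. Among the 24 UBE2 probes above background on all 6 arrays, 14 were lower, 6 were higher and 4 did not pass, where 29.9% and 33.5% of all 9055 such probes were called lower and higher. Without atrazine replicate 2 the counts were 19 lower and 7 higher, where 41.5% and 29.8% of all probes were called.

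**Figure D1:**
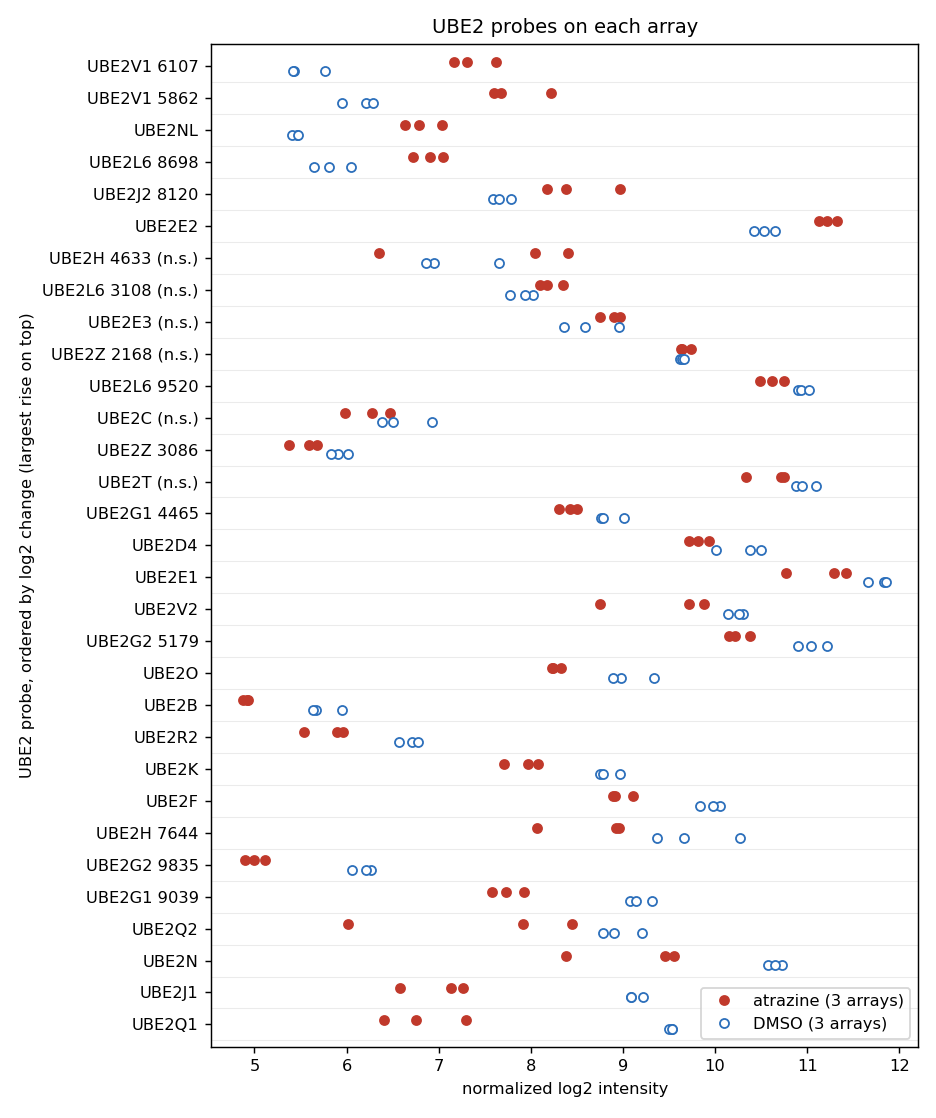
Normalized log2 intensity (x axis) of the 31 tested UBE2 probes (y axis, ordered by log2 change) on each of the 3 atrazine arrays (filled points) and 3 DMSO arrays (open points). Genes with several probes carry the last 4 digits of the probe ID, and n.s. marks the 6 probes that did not pass the threshold. The groups did not overlap for 27 probes, 20 with atrazine below and 7 with atrazine above.

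The groups of arrays did not overlap for 27 of the 31 UBE2 probes, with atrazine below for 20 and above for 7. Over all tested probes, 75% did not overlap, 44.5% with atrazine below and 30.5% above. Changes of 2-fold or more that passed the test were 7 falls and 4 rises, against 14.7% and 14.4% of all tested probes. These sizes depend on the background correction. Without it, UBE2NL and the dimmest UBE2L6 probe, 2 of the 4 rises, gave 0.76 and 0.60, which is under 2-fold. On the deposited intensities, before any scaling, atrazine lay below DMSO without overlap for 26 of the 31 UBE2 probes and above it for 0, where 81.5% and 1.35% of all tested probes did so. The direction of a change below is therefore relative to the other probes of an array, and it depends on the scaling between arrays.

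**Figure D2:**
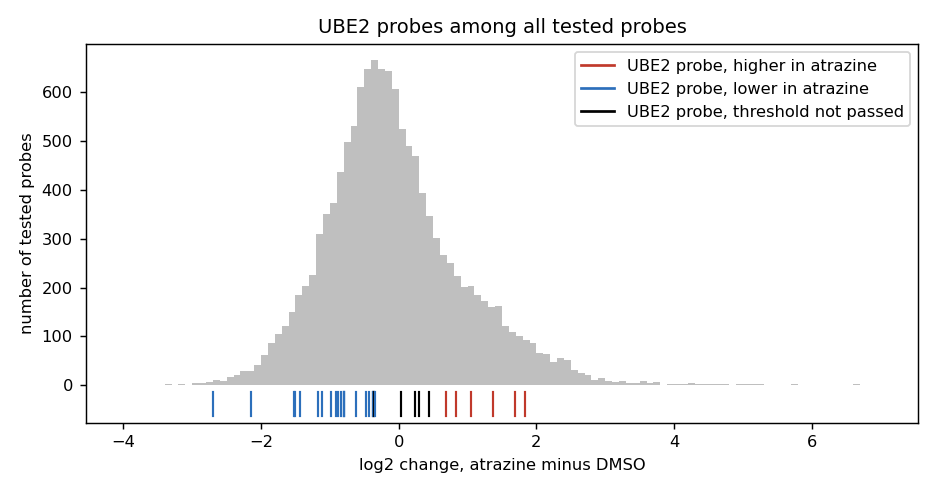
Distribution of the log2 change, atrazine minus DMSO (x axis), over the 12969 tested probes (grey bars, number of probes on the y axis), with a tick under the axis for each of the 31 UBE2 probes. The 19 probes lower in atrazine reach from -0.34 to -2.70, and the 6 higher in atrazine from 0.68 to 1.83.

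Under median scaling, 4 UBE2 probes were higher and 24 lower, where 15.3% and 68.5% of all tested probes were called. Under scaling to 15 probes of 11 housekeeping genes, 8 were higher and 16 lower, where 37.5% and 31.8% were called. Some of these reference probes passed the test themselves after quantile normalization, so this reference was not steady. TFRC (-1.76), HPRT1 (-0.72), an ACTB probe (-0.58) and TBP (-0.30) were lower. SDHA (0.83) and a YWHAZ probe (0.83) were higher, and the other reference probes did not pass. With the authors' processed values the counts were again 6 higher and 19 lower, where 27.8% and 39.7% were called. Without any scaling, an alternative chosen after seeing the data, 0 were higher and 27 lower, where 2.61% and 77.2% were called. The median change of all probes moved with these choices, and was -0.19 after quantile normalization, -0.90 after median scaling, 0.04 after housekeeping scaling and -1.61 without scaling. The UBE2 median minus the median of all probes was -0.29 after quantile normalization and -0.63 without scaling. Median and housekeeping scaling shift each array by a constant, so they gave -0.63 by construction and are no separate result. Across quantile, median and housekeeping scaling and the authors' values, 4 UBE2 probes were called higher in all 4 and 15 lower in all 4, against 14% and 25.5% of all tested probes. These 4 were both UBE2V1 probes, UBE2NL and 1 of 3 UBE2L6 probes. The sign of 10 of the 31 changed between these scalings. Below, a fall "under every scaling" passed the test in all 4 and without scaling. These settings are not independent. The authors' values are also quantile normalized, and median and housekeeping scaling only shift the unscaled values by a constant per array. A fall passes easily without scaling, where most tested probes were called lower.

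**Figure D3:**
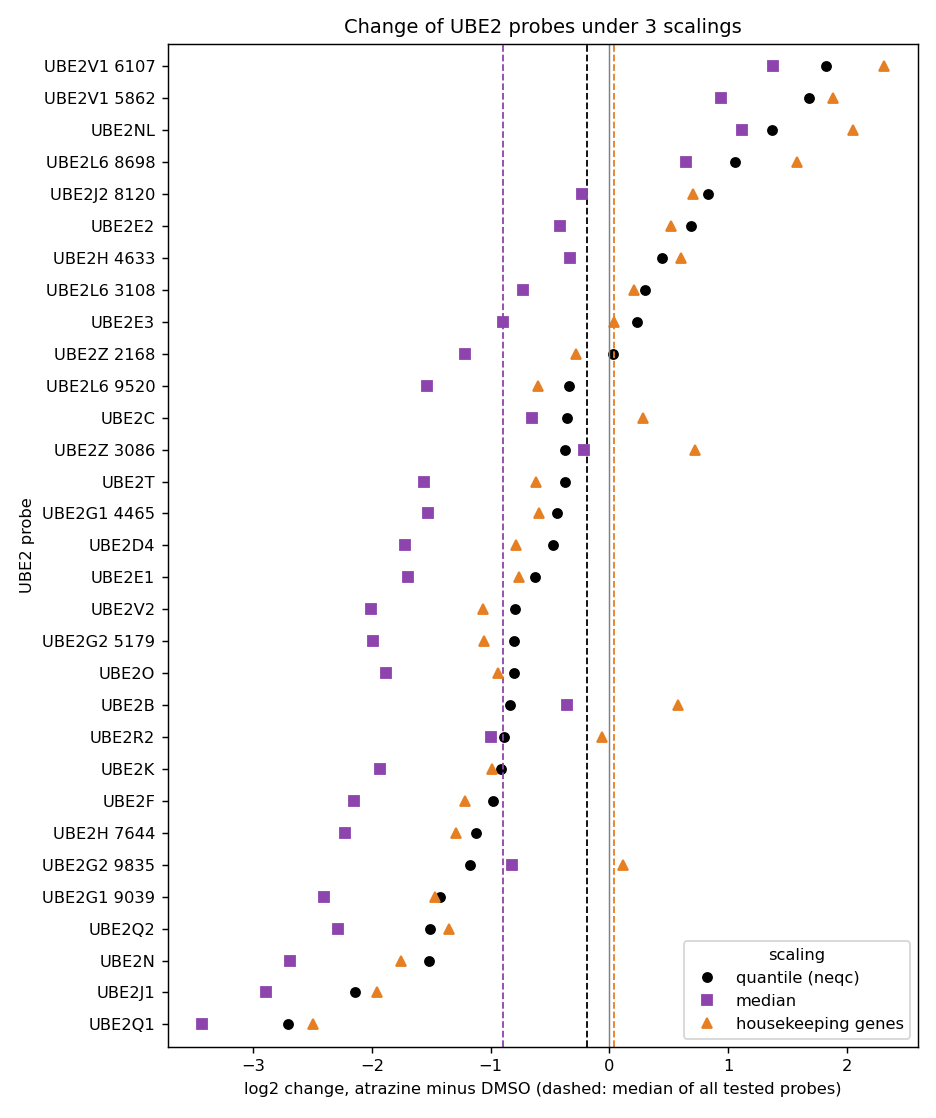
Log2 change, atrazine minus DMSO (x axis), of the 31 tested UBE2 probes (y axis) after quantile normalization (circles), median scaling (squares) and housekeeping scaling (triangles). Dashed lines give the median of all tested probes in each setting, at -0.19, -0.90 and 0.04, and the solid line marks no change. UBE2Q1 and UBE2J1 lie at the low end and the UBE2V1 probes at the high end in all 3. Median and housekeeping scaling keep the same order of probes by construction.

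The ER-associated degradation group, with UBE2G1 as the relative of UBE2G2, had 7 tested probes of 5 genes, of which 6 fell and 1 rose, where 39.2% and 27.6% of all tested probes did so. The 1 rise, of UBE2J2, did not pass under median scaling and was reversed without scaling. UBE2J1 encodes an E2 anchored in the ER membrane that works with the HRD1 ligase complex. Its probe read 7.26, 6.58 and 7.13 on the atrazine arrays, against 9.21, 9.09 and 9.09 on the DMSO arrays. The groups were far apart, and atrazine replicate 2 was the lowest. UBE2J1 fell by 2.14 on the log2 scale (SE 0.18, limma adjusted p = 8.32e-05), or 4.41-fold, and fell under every scaling, with a change of -1.95 against housekeeping genes and of -2.89 against the median. Only 123 of the 12969 tested probes had changes as low or lower. Its mean was 6.99 ± 0.36 in atrazine and 9.13 ± 0.07 in DMSO (SD, n = 3 each).

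UBE2J2, the other ER membrane E2 of this pair, read 8.38, 8.96 and 8.17 in atrazine, against 7.79, 7.59 and 7.65 in DMSO. All atrazine arrays lay above all DMSO arrays. UBE2J2 rose by 0.83 (SE 0.20, limma adjusted p = 0.00905), with -0.23 under median scaling, which did not pass, and -0.94 without scaling, which passed. The probe was annotated to transcript NM_058167. The further UBE2J2 probe, annotated to NM_194458, was at background throughout, at 4.98 to 5.02 in atrazine and 4.76 to 4.88 in DMSO.

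UBE2G2 encodes a soluble E2 of ER-associated degradation. Its brighter probe read 10.22, 10.38 and 10.15 in atrazine, against 10.90, 11.04 and 11.21 in DMSO, and the groups did not overlap. The fall was 1.74-fold (log2 change -0.80, SE 0.12, limma adjusted p = 0.00111), under every scaling. The dimmer probe read 4.90, 5.00 and 5.11 in atrazine, where it was not above background on any array, against 6.27, 6.21 and 6.06 in DMSO. This probe entered the test through the DMSO arrays alone. It was at least 1.15-fold lower (limma adjusted p = 1.22e-04), but gave 0.12, not past, under housekeeping scaling.

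Both UBE2G1 probes, annotated to the same transcript, fell, though to different extents. UBE2G1 elongates chains on substrates of cullin ligases. Its brighter probe read 8.50, 8.30 and 8.42 in atrazine, against 9.01, 8.76 and 8.78 in DMSO, and fell by 0.44 (SE 0.12, limma adjusted p = 0.0124). The other read 7.58, 7.93 and 7.73 in atrazine, against 9.07, 9.31 and 9.14 in DMSO, and fell by 1.43 (SE 0.13). Both fell under every scaling. UBE2K, an E2 that builds degradative chains and binds huntingtin, read 8.08, 7.71 and 7.97 in atrazine, against 8.75, 8.96 and 8.78 in DMSO. It fell 1.88-fold (log2 change -0.91, SE 0.13), also under every scaling.

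In the group of UBE2N and its partners, UBE2N and UBE2V2 fell while UBE2V1 rose. UBE2N, known as Ubc13, builds chains that signal rather than target proteins to the proteasome, and does so only with a UBE2V partner. UBE2N read 9.45, 8.38 and 9.55 in atrazine, against 10.57, 10.73 and 10.65 in DMSO. The groups did not overlap, and atrazine replicate 2 lay about a log2 unit under the other atrazine arrays. UBE2N fell 2.87-fold (log2 change -1.52, SE 0.30, limma adjusted p = 0.00326), under every scaling, and by 1.15 without atrazine replicate 2.

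UBE2V1 and UBE2V2 resemble E2s but lack the active cysteine, and direct UBE2N to inflammatory signalling and to DNA damage tolerance. The UBE2V1 probe annotated to NM_021988 read 7.67, 8.22 and 7.60 in atrazine, against 6.21, 5.95 and 6.29 in DMSO. It rose 3.21-fold (log2 change 1.68, SE 0.19, limma adjusted p = 2.65e-04). A second, annotated to NM_001032288, read 7.17, 7.31 and 7.62 in atrazine, against 5.76, 5.43 and 5.42 in DMSO, and rose 3.55-fold (log2 change 1.83, SE 0.16). Every atrazine array lay above every DMSO array on both probes. Both rose also under median scaling (0.94 and 1.38) and housekeeping scaling (1.88 and 2.32), but without scaling they gave 0.23 and 0.67, neither past the threshold. The size of the rise depended on the background correction, and without that correction both probes rose by 1.06. Their deposited intensities overlapped between the groups, at 128.7, 177.4 and 167.3 units in atrazine, against 135.2, 184.1 and 133.9 in DMSO, for the first, as did those of UBE2NL and of the UBE2L6 probe that rose. The remaining UBE2V1 probe, also annotated to NM_001032288, was above background on no array. PEDS1-UBE2V1, a readthrough gene that shares exons with UBE2V1 and is no member by symbol, had 2 tested probes. One read 9.38, 8.31 and 9.53 in atrazine, against 7.38, 7.01 and 7.21 in DMSO, and rose by 1.88, whereas the other, with a change of -0.23, did not pass (limma adjusted p = 0.22). Which transcripts of the overlapping genes these probes read was not tested.

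UBE2V2 read 9.88, 8.75 and 9.71 in atrazine, against 10.31, 10.26 and 10.14 in DMSO. It fell by 0.79 (SE 0.28, limma adjusted p = 0.0398), under every scaling, and by 0.44 without atrazine replicate 2, the lowest array. Leaving out any 1 DMSO array ended the call, with adjusted p = 0.11, 0.091 and 0.078 without replicates 1, 2 and 3. UBE2NL, a copy of UBE2N on chromosome X that RefSeq lists as a transcribed pseudogene, read 7.04, 6.64 and 6.78 in atrazine, against 5.46, 5.41 and 5.47 in DMSO. It rose 2.59-fold (log2 change 1.37, SE 0.13), but gave 0.41, not past, without scaling. Without background correction UBE2NL rose by 0.76. Its sequence resembles UBE2N, so what its probe binds is uncertain.

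UBE2Q1, a less studied E2 with a long amino-terminal extension, had the largest fall among the UBE2 probes. It read 7.30, 6.75 and 6.41 in atrazine, against 9.53, 9.50 and 9.53 in DMSO. The DMSO arrays lay close together, and the atrazine arrays were spread more widely. UBE2Q1 fell 6.52-fold (log2 change -2.70, SE 0.21, limma adjusted p = 6.02e-05) and fell under every scaling, and only 21 of 12969 probes had changes as low or lower. Without background correction its change was -2.02. Its mean was 6.82 ± 0.45 in atrazine and 9.52 ± 0.02 in DMSO (SD, n = 3 each). UBE2Q2, its relative, read 7.92, 6.02 and 8.45 in atrazine, where replicate 2 was not above background, against 8.79, 9.21 and 8.91 in DMSO. It entered the test through the DMSO arrays alone. It fell by 1.51 (SE 0.57, limma adjusted p = 0.0488), or by 0.79 without atrazine replicate 2. Leaving out a DMSO array ended that call (adjusted p = 0.10, 0.12 and 0.10 without replicates 1, 2 and 3), as did leaving out atrazine replicate 1 (0.062).

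UBE2C and UBE2T, E2s of mitosis and of DNA crosslink repair, did not pass. UBE2B, of DNA damage tolerance like UBE2V2 above, passed as lower but entered the test through the DMSO arrays alone. Of all probes that entered in this way, 68.5% were called lower, so its call is no contrast to UBE2C and UBE2T. UBE2C starts ubiquitin chains for the anaphase-promoting complex, the mitotic ligase. It read 6.28, 5.98 and 6.47 in atrazine, against 6.92, 6.38 and 6.51 in DMSO, and the groups overlapped. Its change was -0.36 (95% interval -0.80 to 0.08, limma adjusted p = 0.12), with 0.29, not past, under housekeeping scaling. It passed as lower under median scaling (-0.65, limma adjusted p = 0.00648) and without scaling (-1.36), and it was above background on 2 of 3 atrazine arrays. UBE2T, the E2 of the Fanconi anaemia ligase FANCL, read 10.72, 10.33 and 10.74 in atrazine, against 11.10, 10.88 and 10.94 in DMSO. All atrazine arrays lay below all DMSO arrays, and the change of -0.37 (95% interval, for this probe alone, -0.71 to -0.04) just missed the threshold (limma adjusted p = 0.051). UBE2T passed as lower under 10 of 18 alternatives, among them median (-1.56) and housekeeping scaling (-0.62), the authors' processed values (-0.36, adjusted p = 0.036) and the fit without atrazine replicate 3 (-0.44, adjusted p = 0.048). UBE2B, a RAD6 enzyme of DNA damage tolerance, read 4.88, 4.93 and 4.92 in atrazine, not above background on any array, against 5.66, 5.95 and 5.63 in DMSO. It passed as lower (limma adjusted p = 7.19e-04) but lay too near background to give a fold, and turned to 0.58, past the threshold, under housekeeping scaling.

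After quantile normalization, the related UBE2D and UBE2E enzymes, which serve many ligases, did not move as one. Under median scaling, UBE2D4 (-1.72), UBE2E1 (-1.70), UBE2E2 and UBE2E3 all passed as lower. UBE2D4 read 9.82, 9.93 and 9.71 in atrazine, against 10.01, 10.50 and 10.38 in DMSO, and fell by 0.48 (SE 0.15, limma adjusted p = 0.0253), under every scaling. UBE2E1 read 11.42, 10.77 and 11.29 in atrazine, against 11.66, 11.84 and 11.86 in DMSO, and fell by 0.62 (SE 0.18, limma adjusted p = 0.0181), under every scaling. UBE2E2 read 11.21, 11.32 and 11.12 in atrazine, against 10.42, 10.65 and 10.54 in DMSO, and rose by 0.68 (SE 0.11, limma adjusted p = 0.00139). All atrazine arrays of UBE2E2 lay above all DMSO arrays, but it turned to -0.42 under median scaling and to -1.13 without scaling, both past the threshold. UBE2E3 read 8.90, 8.96 and 8.75 in atrazine, against 8.96, 8.36 and 8.58 in DMSO, and the groups overlapped (change 0.24, 95% interval -0.15 to 0.63, limma adjusted p = 0.24), with -0.90, past the threshold, under median scaling. Without DMSO replicate 1, UBE2E3 passed as higher (0.40, adjusted p = 0.044). UBE2D4 no longer passed once atrazine replicate 1 or 3 (adjusted p = 0.064 and 0.074) or DMSO replicate 2 or 3 (0.076 and 0.084) was left out. UBE2E1 no longer passed once DMSO replicate 2 or 3 was left out (adjusted p = 0.056 and 0.060).

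The E2s of ubiquitin-like proteins were read by 4 tested probes of UBE2F and UBE2L6. UBE2F passes NEDD8 to cullins and read 8.91, 9.11 and 8.89 in atrazine, against 9.83, 10.05 and 9.97 in DMSO. It fell 1.97-fold (log2 change -0.98, SE 0.11, limma adjusted p = 3.06e-04), under every scaling. UBE2L6, the interferon-induced E2 of ISG15, had 3 tested probes that differed in direction. The brightest read 10.61, 10.74 and 10.48 in atrazine, against 10.90, 10.94 and 11.01 in DMSO, and fell by 0.34 (SE 0.11, limma adjusted p = 0.0269), under every scaling. The dimmest read 6.90, 7.04 and 6.73 in atrazine, against 5.81, 5.65 and 6.05 in DMSO, and rose by 1.06 (SE 0.14, limma adjusted p = 6.05e-04), with -0.07, not past, without scaling. These 2 probes are annotated to the same transcript, NM_198183. The third probe, annotated to NM_004223, read 8.10, 8.35 and 8.18 in atrazine, against 8.02, 7.77 and 7.93 in DMSO, and did not pass (change 0.30, limma adjusted p = 0.056), with -0.73, past the threshold, under median scaling. The brightest probe no longer passed once atrazine replicate 1 or 3 (adjusted p = 0.069 and 0.088) or DMSO replicate 2 or 3 (0.053 and 0.096) was left out.

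**Figure D4:**
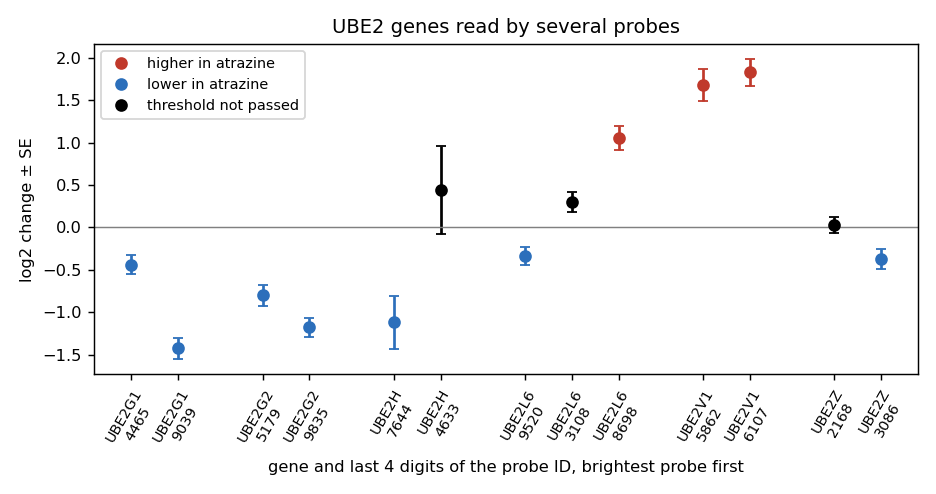
Log2 change, atrazine minus DMSO, with its standard error (y axis; limma, n = 3 arrays each) for the 6 UBE2 genes with 2 or more tested probes (x axis, brightest probe first, with the last 4 digits of the probe ID). Probes of UBE2G1, UBE2G2 and UBE2V1 share a direction within a gene, and those of UBE2H, UBE2L6 and UBE2Z do not.

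Of the 6 UBE2 genes with 2 or more tested probes, the probes had one sign in 3 (UBE2G1, UBE2G2 and UBE2V1) and different signs in the other 3. The range between probes of a gene was from 0.15 log2 units in UBE2V1 to 1.57 in UBE2H. UBE2H, the E2 of the GID/CTLH ligase, read 8.95, 8.06 and 8.92 on its brighter probe in atrazine, against 9.67, 10.27 and 9.37 in DMSO. That probe fell by 1.12 (SE 0.31, limma adjusted p = 0.0150), under every scaling. The other UBE2H probe, annotated to the same transcript, read 8.40, 6.35 and 8.05 in atrazine, against 6.95, 7.65 and 6.86 in DMSO. Atrazine replicate 2 was the only atrazine array below the DMSO arrays there, and the change of 0.45 did not pass (95% interval -0.77 to 1.66, limma adjusted p = 0.47), with -0.33, not past, under median scaling. Without that array it was 1.09 (limma adjusted p = 0.00183).

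UBE2Z, which accepts ubiquitin from the E1 enzyme UBA6, did not pass on its brighter probe. That probe read 9.63, 9.74 and 9.64 in atrazine, against 9.62, 9.64 and 9.66 in DMSO (change 0.03, 95% interval -0.19 to 0.25, limma adjusted p = 0.80), but -1.22, past the threshold, under median scaling. The dimmer probe, at 5.59, 5.68 and 5.37 in atrazine, was above background on no atrazine array, against 5.91, 5.83 and 6.02 in DMSO. It entered the test through the DMSO arrays alone and passed as lower (limma adjusted p = 0.0276), too close to background for a fold. It did not pass under median scaling or with the authors' processed values (-0.21 in each), and turned to 0.73, past the threshold, under housekeeping scaling. It no longer passed once atrazine replicate 1 or 3 (adjusted p = 0.0505 and 0.071) or any 1 DMSO array (0.069, 0.061 and 0.11) was left out.

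The remaining members are UBE2O and UBE2R2. UBE2O, a large enzyme that acts as E2 and E3 at once, read 8.22, 8.25 and 8.33 in atrazine, against 9.33, 8.98 and 8.89 in DMSO. It fell 1.74-fold (log2 change -0.80, SE 0.14, limma adjusted p = 0.00186), under every scaling. UBE2R2, the relative of CDC34 that serves cullin ligases, read 5.90, 5.54 and 5.96 in atrazine, against 6.71, 6.77 and 6.57 in DMSO, and was above background on 2 of 3 atrazine arrays. It entered the test through the DMSO arrays alone. It fell by 0.89 (SE 0.14, limma adjusted p = 0.00129), with -0.06, not past, under housekeeping scaling.

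With each gene read from its brightest probe, 16 of 24 UBE2 genes fell, 4 rose and 4 did not pass. Of all features chosen in this way, which include each tested probe without a symbol, 39.2% fell and 27.4% rose. Of the 25 UBE2 probes past the threshold, 19 kept the call without each of the 6 arrays in turn and 6 lost it at least once. All tested probes were split into 3 equal classes by mean intensity over all arrays. The dim class had 47.4% falls and 27.7% rises, the middle class 36.7% and 31.4%, and the bright class 33.6% and 23.7%. UBE2 probes had 4 falls and 3 rises among 8 in the dim class, 7 and 2 among 11 in the middle class, and 8 and 1 among 12 in the bright class.

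Other genes of ubiquitin conjugation were read from the brightest probe of each gene, and each gene named here was also fitted under median and housekeeping scaling. The shares of all tested probes to set these counts against are 39.2% lower and 27.6% higher, 68.5% and 15.3% under median scaling, and 31.8% and 37.5% under housekeeping scaling. Some listed genes entered the test through the DMSO arrays alone. Of all probes that did so, 68.5% were called lower and 2.83% higher after quantile normalization. The counts of these lists are not split by that route. Of 6 tested E1 enzymes, 3 fell and 1 rose, with a median of -0.38, against -0.19 over all probes. Under median scaling 6 fell and 0 rose, and under housekeeping scaling 4 fell and 0 rose. ATG7, the E1 of the autophagy conjugation systems, fell by 0.58, and SAE1, a subunit of the SUMO E1, by 0.57, both also under these scalings. Of 8 tested E2 enzymes without the UBE2 prefix, 6 fell and 0 rose, with a median of -0.52, against 8 and 0 under median scaling and 5 and 1 under housekeeping scaling. BIRC6, a giant enzyme that joins E2 and E3 activity and inhibits caspases, fell by 1.79, also under these scalings. UEVLD, a UBE2V-like protein, was above background on no atrazine array and entered the test through the DMSO arrays alone. It was at least 1.03-fold lower, but turned to 0.41, past the threshold, under housekeeping scaling. Of 13 tested genes of ubiquitin and ubiquitin-like modifiers, 6 fell and 3 rose, with a median of -0.22, against 9 and 1 under median scaling and 5 and 3 under housekeeping scaling. MAP1LC3A, which encodes a ubiquitin-like modifier of autophagy, rose by 1.34, also under median (0.42) and housekeeping scaling (1.35). ATG12, a modifier of autophagy, entered the test through the DMSO arrays alone. It fell by 0.84, with -0.31, not past, under housekeeping scaling.

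Lists of ligases that use these E2s were read in the same way. Of 15 tested genes of the anaphase-promoting complex, the ligase of UBE2C, 5 fell and 4 rose, with a median of -0.19. Under median scaling 12 fell and 3 rose, and under housekeeping scaling 8 fell and 4 rose. Its subunit genes ANAPC7 and CDC26 rose by 2.56 and 2.05, and rose under median (1.41 and 0.88) and housekeeping scaling (2.35 and 1.82). Of 13 tested ER-associated degradation ligases and cofactors, 7 fell and 1 rose, with a median of -0.40. Under median scaling 13 fell and 0 rose, and under housekeeping scaling 9 fell and 1 rose. DERL2, a channel component, fell by 1.55, and VCP, the ATPase that extracts proteins from the ER, by 1.14, both also under median and housekeeping scaling. Of 14 tested cullin and RBX genes with their neddylation cofactors, 7 fell and 1 rose, with a median of -0.73. Under median scaling 12 fell and 0 rose, and under housekeeping scaling 8 fell and 2 rose. DCUN1D4, a cofactor of cullin neddylation, was above background on no atrazine array and entered the test through the DMSO arrays alone. It was at least 1.73-fold lower, and DCUN1D3 fell by 1.35. Both were also lower under median and housekeeping scaling.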

How the data were processed

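Total RNA of SH-SY5Y cells was isolated with TRIzol and labelled as biotinylated cRNA, per the labels' protocols. The authors deposited 1 intensity and 1 detection p-value per probe and array, per the file headers, with no scaling between arrays visible in the values. The scanner software and any step before deposit are not given in the sources used here. A deposited table of processed intensities equals, for 100% of values within 1%, the raw intensities after quantile normalization on the linear scale, as tested on the files. It is linear intensity, with no centring, and its columns have a median of 111.5.

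Background was corrected with limma 3.58.1 (neqc, in R 4.3.3) through the detection p-values (offset 16), followed by quantile normalization and log2. Every probe was its own feature, named from the platform annotation, which gave 1 symbol for 19715 probes, several for 0 and none for 2469. Probes entered the test with detection p-values under 0.05 on every array of 1 group or both, and tests were run with lmFit and eBayes, with Benjamini-Hochberg adjustment over all of them. The fit alone was also run on simulated normal values in which few probes changed. That run does not test the background correction, the detection filter or the scaling. Where no array of a group read a probe above background, the "at least" fold uses the lowest signal among probes above background. Values by array were given, by rule, for the 8 largest rises and falls among UBE2 probes past the threshold, for genes with several tested probes and for the best studied E2s, which came to every tested UBE2 probe, and for each pathway list the 2 genes of smallest p-value were named. The members and lists were chosen with earlier results of these data known. Groups were taken from the sample labels. Alternatives changed the background correction, offset, scaling, source of values, filter, probe choice, variance model, array weights, replicate block and arrays used. The fit without scaling was added after seeing the data. The number of arrays limits the precision.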

Additional observations from a re-analysis of the deposited data

How the results depend on the processing

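The cause of the difference in array brightness was not tested. Without background correction the counts stayed at 6 higher and 19 lower, where 3598 and 5172 of all 12969 tested probes were called. The largest falls and rises were then smaller, at -2.02 for UBE2Q1, -1.58 for UBE2J1 and 1.06 for both UBE2V1 probes. Without scaling, 0 UBE2 probes were higher, where 338 of all 12969 tested probes were. With a detection p-value under 0.01 on all 6 arrays, fewer probes were tested. Of 18 UBE2 probes tested so, 12 were lower and 4 higher. Of all 6178 probes tested so, 3956 passed, 1854 lower and 2102 higher. Leaving out each array in turn gave 6 to 7 UBE2 probes higher, 13 to 19 lower and 7437 to 9397 of all probes past the threshold. Of the 12993 to 13186 probes tested in these fits, 3119 to 3924 were higher and 4318 to 5473 lower. Signs turned under median scaling for UBE2E2 (-0.42), UBE2E3 (-0.90), the second UBE2H probe (-0.33), UBE2J2 (-0.23), a UBE2L6 probe (-0.73) and the brighter UBE2Z probe (-1.22). Under housekeeping scaling they turned for UBE2B (0.58), UBE2C (0.29), the dimmer UBE2G2 probe (0.12) and the brighter (-0.28) and dimmer (0.73) UBE2Z probes. Without scaling they turned for UBE2E2 (-1.13), UBE2E3 (-1.61), the second UBE2H probe (-1.04), UBE2J2 (-0.94), 2 UBE2L6 probes (-1.44 and -0.065) and the brighter UBE2Z probe (-1.93). That UBE2Z probe gave -0.012 with array weights and -0.0057 to 0.045 over the fits that leave out an array. Same-numbered arrays had deviations from their group means that correlated at -0.17, -0.44 and -0.29 across probes. Pairs with different numbers gave -0.20 to 0.43. With 3 arrays per group these correlations depend on each other, so they cannot settle whether arrays of one number share a culture or batch. With the replicate number as a block, 6 UBE2 probes were higher and 16 lower. Of all 12969 tested probes, 7483 passed in that fit, 3141 higher and 4342 lower. The block ended the calls of a UBE2L6 probe (adjusted p = 0.087, limma), UBE2Q2 (0.061) and the dimmer UBE2Z probe (0.088).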
